A study of Mus musculus with 23 samples.

Results

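Cholesterol synthesis genes were followed across 18 RNA-seq libraries of B16F10 mouse melanoma. They were 8 genes of 47643 in the expression table, taken by name as targets of the transcription factor SREBP2: Hmgcs1, Sqle, Idi1, Fdft1, Fdps, Lss, Cyp51 and Dhcr7. Each name matched 1 row, and all 8 were tested in every comparison. B16F10 is a pigmented C57BL/6 melanoma line that grows as a transplanted tumor. The study disrupted Nr2f6, which encodes an orphan nuclear receptor, with Cas9 and either of 2 guide RNAs, sg492 and sg495, and the control libraries carry the label WT where the others carry NR2F6 KO. RNA came from cultured cells, from whole (bulk) tumors grown under the skin of male C57BL/6 mice a few weeks old, and from tumor cells sorted from such tumors. Control, sg492 and sg495 were represented by 2 libraries apiece in each of these 3 sample types, and the labels name no antibody treatment for them.

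Limits of these groups as models follow from how they were made. By the study's methods, Cas9 protein and a dye-labelled guide were transfected together and the labelled cells were collected by flow cytometry a day later, so an edited population was sorted for uptake of the guide and the sources used here name no single-cell clone. Sorted tumor cells were obtained by collagenase digestion followed by magnetic depletion of stromal cells. Nothing says whether the 2 libraries of a group came from separate cultures or animals, so p-values measure the spread between these libraries, which may be technical.

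Cholesterol is built from acetyl-CoA. HMG-CoA synthase acts on the way to mevalonate, isoprenoid enzymes turn mevalonate into farnesyl diphosphate, squalene synthase and squalene epoxidase commit it to sterols, and lanosterol is then demethylated and reduced to cholesterol. The genes are coordinately controlled by SREBP2, a membrane-bound factor that SCAP escorts to the Golgi for cleavage when sterols are low and that INSIG proteins hold back when sterols are plentiful. Tumor cells draw on the pathway for membranes, and on its isoprenoid branch for lipid anchors of small GTPases.

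Series-wide checks gave the following. Each library had 11925 to 13899 genes at 1 TPM (a length-adjusted transcript level scaled to a fixed library total) or more, and mitochondrially encoded RNA made up 2.556% to 8.018% of TPM, the highest value belonging to sorted sg495 library 1. Nr2f6, the targeted gene, was at 31.9 and 32.9 TPM in cultured control cells. With sg492 it had 26.6 and 31.5 TPM, and sg495 gave 18.6 and 22.4 TPM. Bulk tumors had 25.8 and 25.2 TPM in control, 22.3 and 23.3 TPM for sg492 and 17.2 and 15.8 TPM for sg495. Sorted control cells had 20.3 and 17.7 TPM, sorted sg495 cells 10.6 and 12.2 TPM, and the libraries labelled sg492 19.8 and 25.7 TPM, so the level went against the label of the sorted sg492 libraries. Reads outside a small edit still count toward the gene, and the level is only a partial check. Nr2f6 also lies on chromosome 8, where the median gene was lower with sg495 (values below). The part of that shift in the Nr2f6 level was not tested. Summed over 7 melanocyte genes, libraries held 14840.26 to 17843.93 TPM, with none of the genes at 0, while Ptprc, the leukocyte marker CD45, was at 0 in all 6 cultured libraries, at 0 to 0.15 TPM in sorted cells and at 5.74 to 26.21 TPM in bulk tumors.

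The 8 genes were abundant in every library. Fdps, farnesyl diphosphate synthase, stood highest with a median of 476.7 TPM (range 331.3 to 568.0 over 18 libraries). Cyp51, lanosterol demethylase, had a median of 143.2 TPM (106.8 to 208.6), and Sqle, squalene epoxidase, had 123.6 TPM (94.4 to 135.7). Next came Dhcr7, the reductase of the final step from 7-dehydrocholesterol, at 85.4 TPM (64.7 to 100.5). Hmgcs1, the HMG-CoA synthase of the cytosol, was at 77.6 TPM (58.7 to 97.1) and Idi1, isopentenyl diphosphate isomerase, at 58.9 TPM (46.9 to 79.6). The lowest were Lss, lanosterol synthase, at 43.0 TPM (32.7 to 56.2) and Fdft1, squalene synthase, at 36.4 TPM (28.5 to 44.03). By these ranges only Fdps was separated from its neighbour in the order of levels, and every other adjacent pair overlapped.

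**Figure D1:**
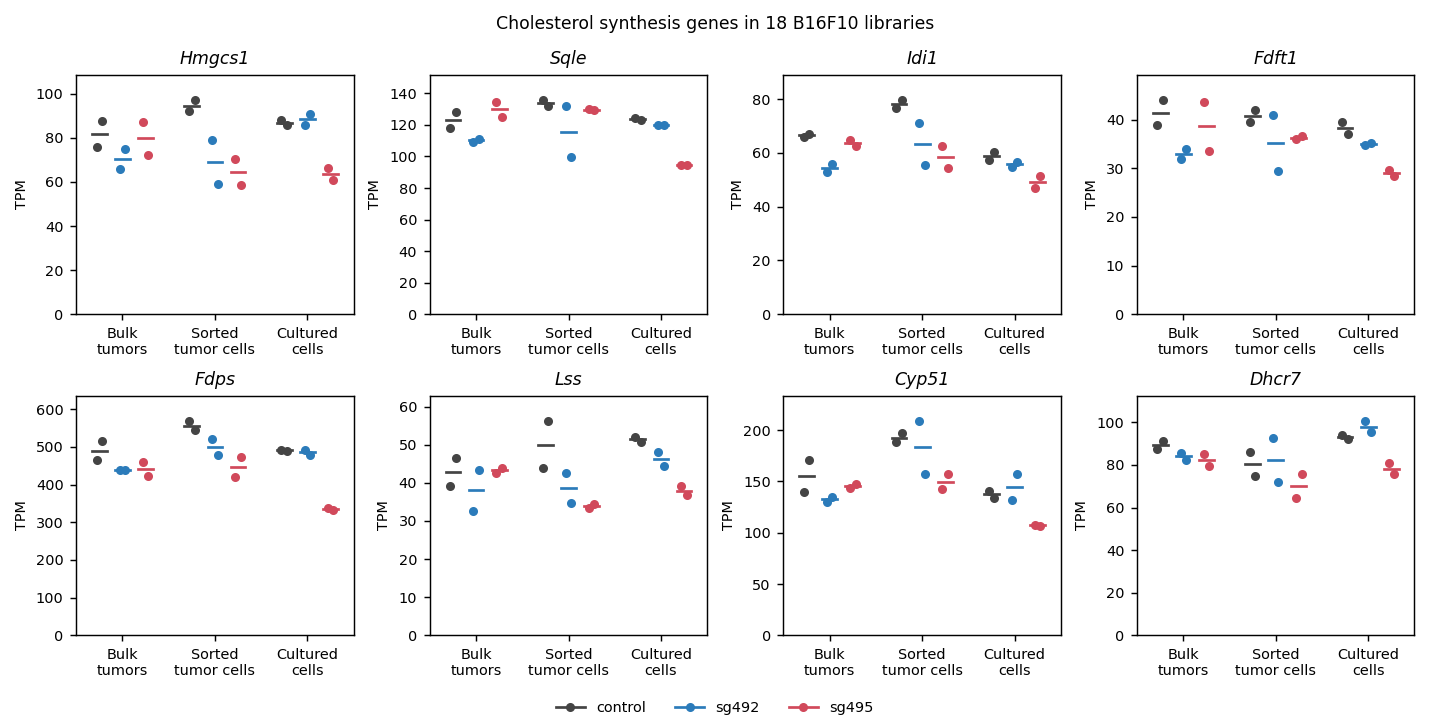
TPM of each of the 8 genes (y axis, linear from 0) by sample type (x axis), with points for single libraries and bars for the mean of 2. In cultured cells both sg495 points lie below both control points in all 8 panels, with Fdps at 336.7 and 331.3 TPM against 492.9 and 489.04 TPM.

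In GRCm38 coordinates with GENCODE M21 models, the genes lay on 7 chromosomes: Hmgcs1 (ENSMUSG00000093930) at chr13:119690379-119708260 and Idi1 (ENSMUSG00000058258) at chr13:8885501-8892451, Sqle (ENSMUSG00000022351) at chr15:59315077-59331192, Fdft1 (ENSMUSG00000021273) at chr14:63145150-63179578, Fdps (ENSMUSG00000059743) at chr3:89093588-89101959, Lss (ENSMUSG00000033105) at chr10:76531588-76557138, Cyp51 (ENSMUSG00000001467) at chr5:4081145-4104746 and Dhcr7 (ENSMUSG00000058454) at chr7:143823145-143848410. Fdft1, Fdps and Cyp51 are on the minus strand. The end of Fdft1 shares 774 of its 4227 exonic bases with Ctsb on the opposite strand, a cathepsin gene at 149.2 and 146.99 TPM in cultured control cells. The library kit kept strand, but the strand setting used in counting is not given in the sources used here, so Fdft1 values are uncertain to that extent. Fdps shares 1124 of 4208 exonic bases with a predicted gene on the same strand, Gm43738, whose level did not exceed 0.33 TPM in any of the 18 libraries.

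Promoter sequence is shown because SREBP2 acts there together with the ubiquitous factors NF-Y and Sp1. RefSeq windows on GRCm38.p6, from 250 bases before to 50 after a transcript start, were found for 5 of the 8 genes (Hmgcs1, Idi1, Lss, Cyp51 and Dhcr7, the last with 3 starts, 7 windows in all) and not for Sqle, Fdft1 and Fdps. Both strands were searched for the sterol regulatory element core CACNCCAC, the NF-Y element CCAAT, the Sp1 element GGGCGG and the nuclear receptor core AGGTCA. In the following sequences, all on the plus strand and ending before the annotated start, capitals mark the first 3 of these elements on either strand.
Hmgcs1, chr13:119690101-119690350: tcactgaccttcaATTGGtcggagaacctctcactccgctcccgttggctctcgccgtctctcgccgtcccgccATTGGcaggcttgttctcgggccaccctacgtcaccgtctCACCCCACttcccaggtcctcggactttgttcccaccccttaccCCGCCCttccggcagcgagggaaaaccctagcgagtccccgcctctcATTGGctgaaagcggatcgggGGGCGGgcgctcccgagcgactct
Lss, chr10:76531355-76531587: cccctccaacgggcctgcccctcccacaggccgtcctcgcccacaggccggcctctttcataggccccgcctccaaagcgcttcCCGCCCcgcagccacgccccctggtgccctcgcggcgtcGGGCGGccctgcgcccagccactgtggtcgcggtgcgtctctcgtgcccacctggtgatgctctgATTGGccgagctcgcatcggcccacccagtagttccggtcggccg
Dhcr7, chr7:143822917-143823144: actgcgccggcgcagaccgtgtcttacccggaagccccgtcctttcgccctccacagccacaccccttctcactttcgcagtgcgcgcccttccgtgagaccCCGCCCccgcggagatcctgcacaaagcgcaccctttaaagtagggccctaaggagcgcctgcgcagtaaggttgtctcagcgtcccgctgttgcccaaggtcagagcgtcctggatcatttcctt

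The sterol regulatory element core occurred in 1 of the 7 windows, that of Hmgcs1, as CACCCCAC at bases -136 to -129 from the start, against 6.24% of all 32851 windows. CCAAT was found in windows of all 5 genes (5 of 7 windows, against 37.4% of all windows), including -62 to -58 in Lss and -29 to -25 in Cyp51. GGGCGG was in 6 of 7 windows (35.7% of all), for example at -148 to -143 in Dhcr7 and -69 to -64 in Idi1. AGGTCA was in 4 of 7 windows (16.3% of all), from Hmgcs1 and Dhcr7 only. Some starts of Dhcr7 lie close together, so its windows overlap. These are matches of letters, not measured binding.

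The clearest difference was with sg495 in cultured cells, where all 8 genes fell together. The comparison asks what Nr2f6 disruption does to tumor cells away from the host. A change is called "fell" or "rose" here where the adjusted p (limma on log2(TPM + 1), Benjamini-Hochberg over all genes tested) was below 0.05, and "called" where the change also reached 1.5-fold. All 8 fell, against 7.5% of the 12007 genes tested that fell. None of the 8 reached 1.5-fold, against 2.77% of genes called. All 8 were lower at an unadjusted p below 0.05 in limma, against 1821 lower and 1516 higher of all 12007 genes. Both sg495 libraries were below both control libraries for 8 of 8 genes, a pattern shown by 28.9% of all genes. The median log2 fold change was -0.39, against -0.001 over all genes, and 8.36% of genes tested lay below that median.

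Among the early enzymes, Hmgcs1, which condenses acetyl-CoA units into HMG-CoA, was at 88.02 and 85.8 TPM in control cells and 66.4 and 60.8 TPM with sg495. It fell by 26.6% (log2 fold change -0.45, SE 0.059, adjusted p = 0.00882). Idi1, which interconverts the isoprene units, had 57.3 and 60.4 TPM in control and 46.9 and 51.4 TPM with sg495. The fall of 16.3% was small and close to the threshold (log2 fold change -0.26, SE 0.0621, adjusted p = 0.0489). Fdps joins those units into farnesyl diphosphate, the branch point toward sterols or protein prenylation. It went from 492.9 and 489.04 TPM to 336.7 and 331.3 TPM, which differ by many times the gap within either pair. Fdps fell by 31.9%, the most of the 8 (log2 fold change -0.55, SE 0.0324, adjusted p = 0.00121).

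Both squalene enzymes fell. Fdft1, which joins farnesyl diphosphate molecules into squalene, was at 39.6 and 37.03 TPM in control and 29.6 and 28.5 TPM with sg495. It fell by 23.6% (log2 fold change -0.39, SE 0.0577, adjusted p = 0.0123), while its antisense neighbour Ctsb was at 158.7 and 160.8 TPM with sg495. Sqle, an oxygen-requiring and often rate-limiting enzyme, had 124.4 and 122.8 TPM in control and 94.8 and 94.4 TPM with sg495. Its fall was 23.3% (log2 fold change -0.38, SE 0.0367, adjusted p = 0.00362), and replicates differed by under 2 TPM in both groups.

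The sterol-forming steps followed. Lss, which closes the rings of lanosterol, was at 52.02 and 50.8 TPM in control and 39.2 and 36.7 TPM with sg495, a fall of 25.7% (log2 fold change -0.43, SE 0.062, adjusted p = 0.0116). Cyp51, the cytochrome P450 that demethylates lanosterol, had 141.1 and 133.6 TPM against 107.4 and 106.8 TPM. It fell by 21.8% (log2 fold change -0.35, SE 0.0828, adjusted p = 0.0447). Dhcr7 catalyses the last reduction and had the smallest estimate, going from 93.9 and 92.3 TPM to 81.03 and 75.5 TPM. Its fall was 15.8% (log2 fold change -0.25, SE 0.0522, adjusted p = 0.034). Summed over the 8 genes, control libraries held 1089.2 and 1071.8 TPM and sg495 libraries 802.0 and 785.4 TPM.

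**Figure D2:**
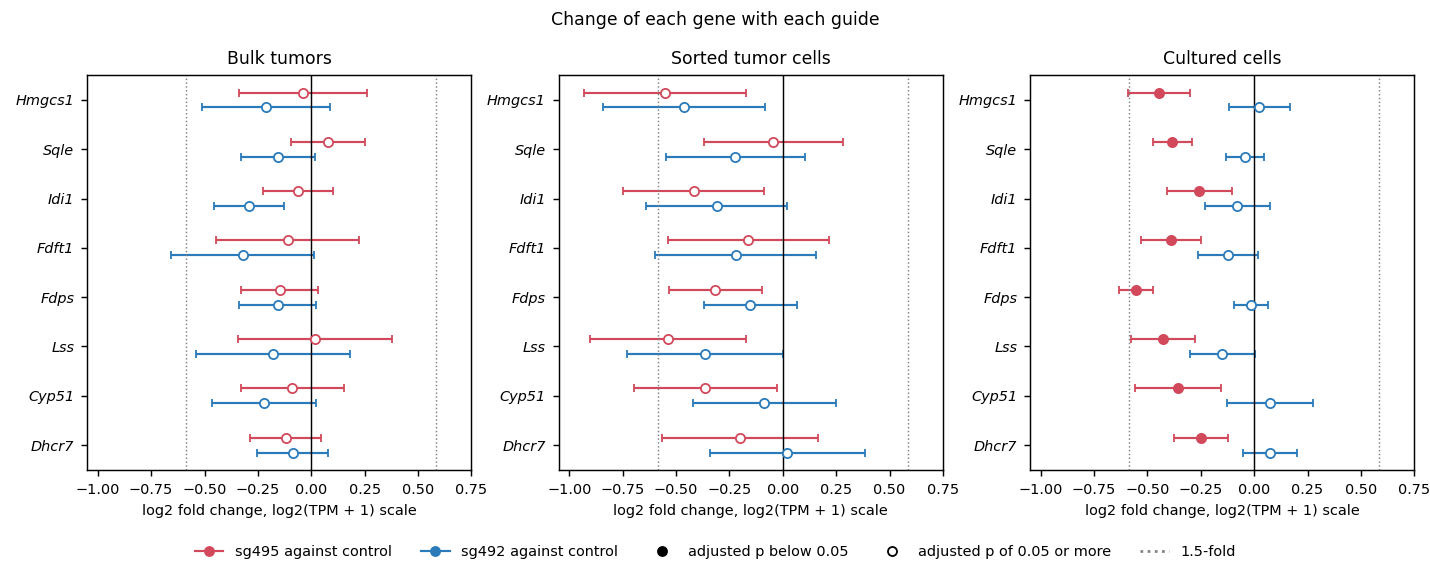
Log2 fold change of each gene (x axis, log2(TPM + 1) scale) with sg495 and sg492 against control in the 3 sample types, with 95% confidence intervals as bars, filled points for an adjusted p below 0.05 and dotted lines at 1.5-fold. Filled points occur only for sg495 in cultured cells, where the 8 estimates run from -0.55 for Fdps to -0.25 for Dhcr7.

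All 8 stayed lower under each of 16 alternative settings, but the number with an adjusted p below 0.05 ranged from 2 to 8: Sqle and Fdps passed in 16 of 16 settings, Hmgcs1 and Fdft1 in 12, Lss in 11, Cyp51 in 7, Dhcr7 in 6 and Idi1 in 4. It was 2 without control library 1, 3 without control library 2, 3 without sg495 library 1 and 2 without sg495 library 2, and also 2 when all 18 libraries shared a fit, 5 without the filter on low genes and 5 without the mean-variance trend.

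Other genes of the pathway and of its control fell in the same comparison, though not all of them. Of 12 further enzymes of the pathway, 11 were lower and 7 fell, with a median of -0.26. Msmo1, the sterol methyl oxidase, was at 176.4 and 173.6 TPM in control and 95.1 and 97.7 TPM with sg495, and was called (log2 fold change -0.85, SE 0.0377, adjusted p = 0.000729). Mvd, mevalonate diphosphate decarboxylase, was also called, at 36.2 and 35.97 TPM against 20.5 and 19.5 TPM (log2 fold change -0.82, SE 0.0592, adjusted p = 0.00189). The others that fell were Pmvk, a kinase of mevalonate phosphate, Nsdhl, Sc5d and Ebp, enzymes of the steps after lanosterol, and Acat2, the thiolase that feeds the pathway, with log2 fold changes from -0.41 for Pmvk to -0.18 for Ebp. Msmo1 and Mvd kept an adjusted p below 0.05 in limma under 16 of 16 alternatives, Nsdhl and Sc5d under 12, Ebp under 6, Pmvk under 5 and Acat2 under 4.

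Of 7 genes of SREBP control, 5 were lower and 3 fell. Srebf2, which encodes SREBP2, was at 75.6 and 76.1 TPM in control and 64.2 and 64.9 TPM with sg495 (log2 fold change -0.23, SE 0.0445, adjusted p = 0.0271). Insig1, itself an SREBP target, was at 137.9 and 135.3 TPM against 103.03 and 96.4 TPM (log2 fold change -0.45, SE 0.0489, adjusted p = 0.00511). Mbtps1, which encodes the site-1 protease that cleaves SREBPs, was at 51.5 and 47.7 TPM against 33.1 and 35.4 TPM (log2 fold change -0.52, SE 0.0616, adjusted p = 0.00638). Insig1 and Mbtps1 kept an adjusted p below 0.05 in limma under 15 of 16 alternatives and Srebf2 under 10. With sg492 in cultured cells, none of the 12 further enzymes or 7 control genes passed in limma, and 3 enzymes (2 lower, 1 higher) and 0 control genes had an unadjusted p below 0.05.

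The median gene of chromosome 8 was lower with sg495, and 3 of these neighbours lie on that chromosome. Whether the shift spans all of the chromosome was not examined. Mvd, Msmo1 and Mbtps1 lie on chromosome 8, as does Nr2f6, and the median log2 fold change of all genes tested on chromosome 8 with sg495 was -0.33 in cultured cells (645 genes), -0.34 in sorted cells (684 genes) and -0.25 in bulk tumors (717 genes). The part of this shift in their values was not tested. None of the 8 genes is on chromosome 8, and in cultured cells the medians of the chromosomes that carry them ran from -0.014 to 0.027. These values concern location only, and an indirect part of the chromosome 8 shift in the 8 genes was not tested. Among the 10 further enzymes outside chromosome 8, 9 were lower, 5 fell and none was called, with a median of -0.21.

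Hypoxia genes moved more than the sterol genes in the same libraries. All 5 tested (Vegfa, Slc2a1, Pdk1, Bnip3 and Egln3, coding for an angiogenic factor, a glucose transporter, a mitochondrial kinase, a mitophagy receptor and an oxygen sensor) were called lower with sg495 in cultured cells, with a median of -0.94. Their summed level was 747.5 to 760.8 TPM in control, 559.8 to 574.0 with sg492 and 318.0 to 324.2 with sg495. The 8 cholesterol synthesis genes summed to 1069.3 and 1079.6 TPM with sg492, inside or next to the control range. Of 6 proliferation genes, 5 were lower with sg495, with a median of -0.04. In the tumor-derived libraries the hypoxia genes lay on the other side of control with sg495, with 4 of 5 higher in sorted cells (median 0.28) and 5 of 5 in bulk tumors (median 0.30), none of them called. The part of the hypoxia and proliferation changes in the sterol result was not tested.

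**Figure D3:**
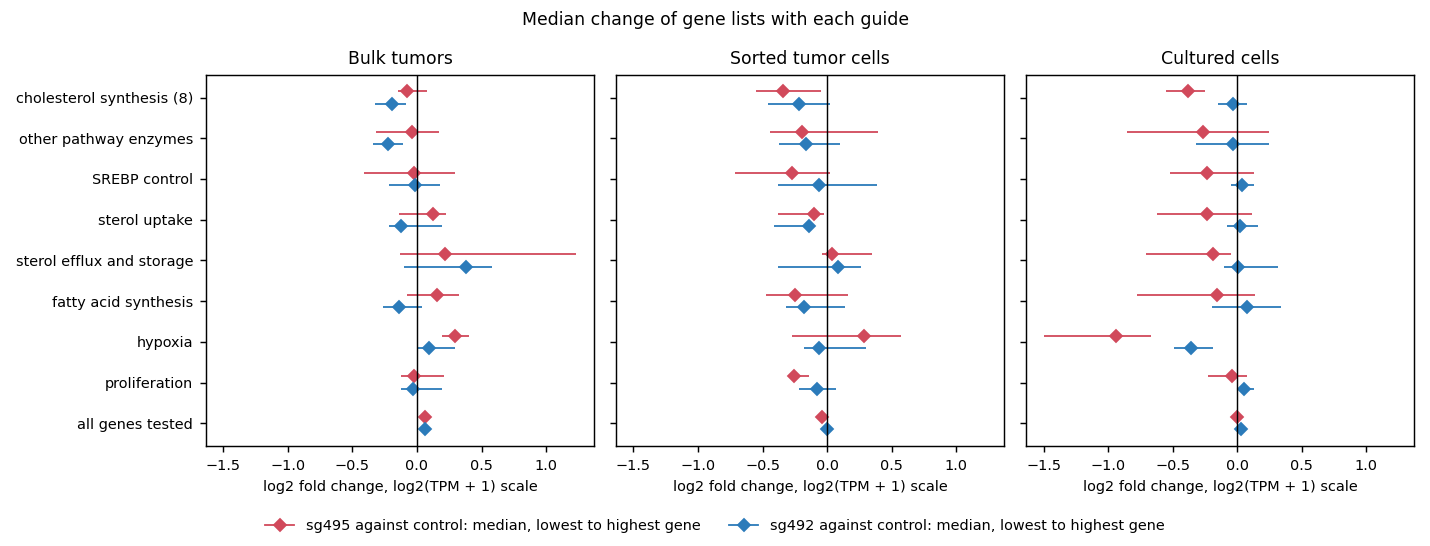
Median log2 fold change (diamonds) and the range from lowest to highest gene (bars) of gene lists with each guide in 3 sample types, with all genes tested at the bottom as the median only. With sg495 in cultured cells the 8 cholesterol synthesis genes had a median of -0.39, the other pathway enzymes -0.26 and the hypoxia genes -0.94.

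In sorted tumor cells the 8 genes were again all lower with sg495, with a wider spread between libraries, and none passed the test. The comparison asks whether the difference is present in tumor cells taken from the host. The median was -0.34 (all genes -0.04), and none was called, against 0.899% of the 12899 genes tested. In limma 5 of 8 were lower at an unadjusted p below 0.05, against 1356 lower and 654 higher of all genes. Both sg495 libraries were below both controls for 7 of 8 genes, against 31.5% of all genes, and Dhcr7 was the exception.

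Hmgcs1 was at 92.1 and 97.1 TPM in sorted control cells and 70.3 and 58.7 TPM with sg495 (log2 fold change -0.55, SE 0.156, adjusted p = 0.187). Lss was at 43.98 and 56.2 TPM against 33.3 and 34.5 TPM (log2 fold change -0.54, SE 0.15, adjusted p = 0.183). These were the largest estimates, at 31.7% and 31.2% lower. Idi1 had 76.8 and 79.6 TPM in control and 62.6 and 54.3 TPM with sg495 (log2 fold change -0.42, SE 0.135, adjusted p = 0.236). Fdps had 568.01 and 543.8 TPM against 419.9 and 474.4 TPM (log2 fold change -0.32, SE 0.0893, adjusted p = 0.187). Groups did not overlap for either gene. Cyp51 was at 188.4 and 197.02 TPM in control and 142.6 and 157.01 TPM with sg495 (log2 fold change -0.36, SE 0.138, adjusted p = 0.294). For the remaining genes the intervals included 0. Dhcr7 had 86.2 and 75.02 TPM against 64.7 and 75.6 TPM, with an interval of -0.56 to 0.17 for the log2 fold change. Fdft1 was at 39.6 and 41.99 TPM against 36.01 and 36.7 TPM, with an interval of -0.54 to 0.22. Sqle showed the smallest difference of the 8 despite its clear fall in culture, at 135.7 and 132.1 TPM against 130.3 and 129.3 TPM (log2 fold change -0.04, SE 0.134, adjusted p = 0.904).

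When all 18 libraries shared a fit, 4 of the 8 passed in sorted cells (Hmgcs1, Idi1, Fdps and Lss, adjusted p 0.0256, 0.0225, 0.0151 and 0.0345 in limma). More genes passed in general in that fit, where 862 of 13152 genes fell, against 61 of 12899 in the main fit. Without sg495 library 1, which had the highest mitochondrial share, all 8 were lower with a median of -0.26, and without sg495 library 2 the median was -0.36. Under quantile normalization Sqle was higher by 0.0079 and the other 7 stayed lower.

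Other features of the sorted cells differed between sg495 and control. Dissociation stress genes summed to 679.9 and 698.3 TPM in control and 791.8 and 1535.8 TPM with sg495, with 6 of 6 tested higher and Egr1 called, a call kept under 7 of 16 alternatives. Proliferation genes summed to 1341.3 to 1359.7 TPM in control and 1116.3 to 1145.0 with sg495, with 6 of 6 lower, 5 of them at an unadjusted p below 0.05 and none passing in limma. Leukocyte genes were low throughout, at 7.6 to 9.8 TPM summed in control and 12.3 to 17.2 with sg495, with Ptprc at no more than 0.15 TPM. The part of these in the sterol values was not tested. Of the 12 further enzymes, 11 were lower (median -0.20), 3 of those had an unadjusted p below 0.05 and none passed. Of the 7 SREBP control genes, 5 were lower and Mbtps1, the site-1 protease gene on chromosome 8, was called (log2 fold change -0.71, SE 0.077, adjusted p = 0.0202), under 7 of 16 alternatives. Srebf2 was at 97.9 and 93.6 TPM in control and 78.7 and 78.4 TPM with sg495 (log2 fold change -0.28, SE 0.0745, adjusted p = 0.167), and Insig1 at 239.6 and 292.5 TPM against 233.5 and 188.1 TPM (log2 fold change -0.34, SE 0.16, adjusted p = 0.386).

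**Figure D4:**
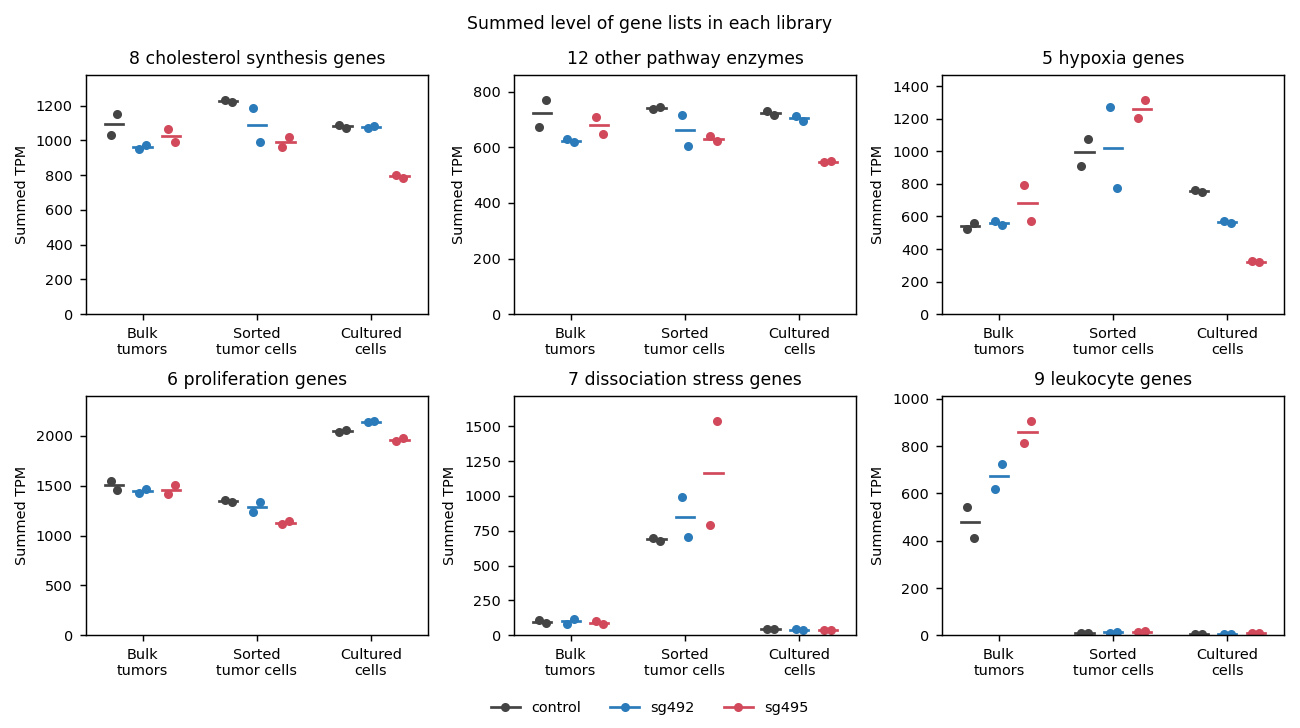
Summed TPM of 6 gene lists (y axis, linear from 0) in each library by sample type, with bars for the mean of 2. With sg495 in cultured cells the 8 cholesterol synthesis genes and the 5 hypoxia genes lie below control, and leukocyte genes reach 814.0 to 905.1 TPM in sg495 bulk tumors against 413.5 to 541.7 in control tumors.

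In bulk tumors the differences of the 8 genes with sg495 were small and none passed. In limma, 6 were lower and 2 higher, with a median of -0.07 (all genes 0.06), and none was called, against 0.0293% of the 13639 genes tested. None had an unadjusted p below 0.05 in limma, against 620 lower and 1515 higher of all genes. Both sg495 tumors were below both controls for Idi1, Dhcr7 and Fdps, 3 of 8, against 14.3% of all genes. In bulk tissue, fewer cells of a type and less RNA per cell cannot be told apart.

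Fdps was at 464.4 and 515.98 TPM in control tumors and 460.8 and 423.7 TPM with sg495, with an interval of -0.33 to 0.03 for the log2 fold change. Sqle was at 118.1 and 128.1 TPM against 134.7 and 125.2 TPM, with overlapping groups and an interval of -0.09 to 0.25. For both genes the estimate in cultured cells lay below this interval, which is not adjusted for the number of genes. The interaction test of this difference, given below, did not pass for either gene. Hmgcs1 was at 76.1 and 87.8 TPM against 87.1 and 72.4 TPM, with an interval of -0.34 to 0.26, and Lss at 39.3 and 46.6 TPM against 42.6 and 44.02 TPM, with an interval of -0.34 to 0.38. The later enzymes overlapped between groups or nearly so. Cyp51 had 139.9 and 171.1 TPM in control and 143.8 and 147.2 TPM with sg495, and Dhcr7 87.5 and 91.3 TPM against 84.97 and 79.5 TPM. Fdft1 had 38.95 and 44.03 TPM in control and 43.7 and 33.5 TPM with sg495, and its sg495 libraries lay on both sides of the lower control. For Idi1 the tumors were at 65.99 and 66.98 TPM against 64.9 and 62.6 TPM.

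The size of the estimate in bulk tumors depended on scaling, and its direction on 1 library. Under median-of-ratios scaling all 8 were lower with a median of -0.15, and without control tumor 2, which had the highest value of 7 of the 8 genes, 4 were lower and 4 higher with a median of 0.02. Markers of other cells were higher with sg495, by amounts that did not pass the test: 9 of 9 leukocyte genes were higher with sg495 (median 0.95), with sums of 413.5 to 541.7 TPM in control and 814.0 to 905.1 with sg495, and 7 of 7 fibroblast genes were higher (median 0.89), with sums of 339.7 to 402.8 TPM in control and 550.4 to 956.3 with sg495. Of these, 9 leukocyte and 6 fibroblast genes had an unadjusted p below 0.05 and none passed in limma. Their part in the sterol values was not tested.

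Whether the sg495 difference itself varied with the sample type was tested as an interaction in a fit of all 18 libraries. Between sorted and cultured cells none of the 8 passed, against 3.94% of the 13152 genes tested that did in either direction. None was called, against 2.51%. In limma 2 of 8 were positive at an unadjusted p below 0.05, against 1015 positive and 1441 negative of all genes. Those were Sqle (difference 0.34 in log2 units, SE 0.136, adjusted p = 0.2) and Fdps (difference 0.24 in log2 units, SE 0.0985, adjusted p = 0.213). With counts of this size in all genes, 2 of 8 does not set the 8 genes apart. Without sorted library 1 or 2 labelled sg492, Sqle passed (adjusted p 0.0233 and 0.0229 in limma). For Hmgcs1 the interval of the difference was -0.52 to 0.31 and for Cyp51 -0.39 to 0.37, so that differences of moderate size in either direction remain possible.

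Between bulk tumors and cultured cells the difference was positive for 8 of 8 genes, that is, less negative in tumors, with a median of 0.34 (all genes 0.06). None passed, against 2.25% of genes that did in either direction, and none was called, against 1.76%. In limma 3 of 8 were positive at an unadjusted p below 0.05, against 1531 positive and 481 negative of 13152 genes. Fdps came closest (difference 0.41 in log2 units, SE 0.0985, adjusted p = 0.0548), followed by Sqle (difference 0.46 in log2 units, SE 0.136, adjusted p = 0.105) and Lss (difference 0.45 in log2 units, SE 0.201, adjusted p = 0.316). Both genes nearest the threshold moved across it with the choice of libraries: without either sorted library labelled sg492, Sqle had an adjusted p of 0.00898 and 0.00888 in limma and Fdps 0.0462 and 0.0465, without either sorted sg495 library Fdps had 0.0352 and 0.0354, and with a minimum mean of 5 TPM it had 0.0495. Sorted libraries enter this contrast only through the shared spread, so the estimates themselves did not move.

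With the second guide the estimated differences in culture were smaller in size for each of the 8 genes than with sg495. With sg492 in cultured cells, 5 of 8 genes were lower and 3 higher, with a median of -0.03 (all genes 0.03). None of the 8 was called, against 0.05% of genes. None had an unadjusted p below 0.05 in limma, against 441 lower and 824 higher of 12007 genes. Both sg492 libraries were below both controls for Fdft1, Sqle, Lss and Idi1, 4 of 8, against 14.3% of all genes, and above both for Dhcr7.

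For Fdps, sg492 libraries were at 493.1 and 479.02 TPM in culture, with an interval of -0.09 to 0.06 for the log2 fold change. Sqle was at 119.98 and 119.8 TPM (-0.13 to 0.05) and Hmgcs1 at 85.8 and 91.1 TPM (-0.12 to 0.17). For these genes the sg495 estimates lay below the intervals, which are not adjusted for the number of genes. The guides share their controls, and the difference between guides was not tested. The estimate was largest for Lss, at 48.1 and 44.5 TPM (log2 fold change -0.15, SE 0.062, adjusted p = 0.475), and then for Fdft1, at 34.9 and 35.2 TPM (log2 fold change -0.12, SE 0.0577, adjusted p = 0.515). Idi1 was at 54.6 and 56.8 TPM. Cyp51 was at 132.3 and 157.7 TPM, the widest gap within this group, and Dhcr7 at 100.5 and 95.6 TPM. The hypoxia genes were lower for 5 of 5 with sg492 in culture (median -0.36), and only Bnip3 passed (log2 fold change -0.49, SE 0.0399, adjusted p = 0.0239). Bnip3 was not called, and its adjusted p in limma stayed below 0.05 under 4 of 16 alternatives.

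In sorted cells, the libraries labelled sg492 had 7 of 8 genes lower, with a median of -0.22 (all genes 0.003). None of the 8 was called, against 0.0388% of genes, and only Hmgcs1 had an unadjusted p below 0.05 (log2 fold change -0.46, SE 0.156, adjusted p = 0.653). At that unadjusted p in limma, 436 of 12899 genes were lower and 484 higher. Both libraries were below both controls for Lss, Idi1, Fdps and Hmgcs1, 4 of 8, against 20% of all genes. Library 2 was lower than library 1 for all 8 genes, by a median of 0.38 in log2 units, whereas the median gaps within other groups were 0.04 to 0.16. Sqle, for example, was at 132.2 and 99.4 TPM, Cyp51 at 208.6 and 157.8 TPM and Hmgcs1 at 79.1 and 59.2 TPM. The value rests on library 2, since the median was -0.06 without it and -0.44 without library 1. The remaining genes followed the same order of libraries, with Fdps at 521.2 and 479.6 TPM, Idi1 at 71.1 and 55.5 TPM and Lss at 42.6 and 34.6 TPM. Fdft1 was at 41.1 and 29.5 TPM and Dhcr7 at 92.7 and 71.9 TPM, both with 1 library at or above the lower control.

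In bulk tumors all 8 genes were lower with sg492, by amounts that did not pass the test. The median was -0.20 (all genes 0.06), and it was -0.09 without control tumor 2 and -0.30 without control tumor 1, with all 8 lower in both cases. In the test, none of the 8 was called, against 0% of genes. In limma 1 of 8, Idi1, had an unadjusted p below 0.05, against 222 lower and 910 higher of 13639 genes. Both sg492 tumors were below both controls for 7 of 8 genes, against 11.3% of all genes, and Lss was the exception. Idi1 was at 65.99 and 66.98 TPM in control tumors and 52.7 and 55.7 TPM with sg492 (log2 fold change -0.29, SE 0.0673, adjusted p = 0.481). Fdft1 was at 31.9 and 34.04 TPM (log2 fold change -0.32, SE 0.138, adjusted p = 0.611) and Cyp51 at 130.2 and 134.9 TPM (log2 fold change -0.22, SE 0.0997, adjusted p = 0.62). For the early enzyme Hmgcs1 the sg492 tumors had 65.9 and 75.1 TPM, and Fdps had 439.7 and 437.5 TPM. Sqle was at 109.5 and 110.9 TPM, Dhcr7 at 85.9 and 82.3 TPM and Lss at 32.7 and 43.4 TPM, with estimates of -0.16, -0.09 and -0.18. All 12 further enzymes were lower too (median -0.22), 5 of them at an unadjusted p below 0.05 and none passing in limma, while 9 of 9 leukocyte genes were higher (median 0.59), and the part of cell content was not tested.

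Across sample types, several of the genes were higher in sorted tumor cells than in culture. Averaged over the 3 guide groups, Cyp51, Idi1, Fdps and Sqle rose and Dhcr7 fell, 4 and 1 of 8, against 31.7% of all 13152 genes that rose and 34.8% that fell. None reached 1.5-fold, against 23.6% of genes called. Shares of this size in all genes mean that these counts do not set the 8 genes apart. Cyp51 showed the largest difference, with 188.4 and 197.02 TPM in sorted and 141.1 and 133.6 TPM in cultured control cells (difference 0.43 in log2 units, SE 0.0712, adjusted p = 0.000158). Idi1 had 76.8 and 79.6 TPM against 57.3 and 60.4 TPM (difference 0.27 in log2 units, SE 0.0575, adjusted p = 0.00102), with all control libraries of sorted cells above those of culture. Fdps differed by 0.21 (SE 0.0402, adjusted p = 0.000462 in limma) and Sqle by 0.17 (SE 0.0556, adjusted p = 0.0177). Dhcr7 went the other way, at 86.2 and 75.02 TPM against 93.9 and 92.3 TPM (difference -0.21 in log2 units, SE 0.0628, adjusted p = 0.0102). Lss, Fdft1 and Hmgcs1 did not pass, with differences of -0.16, 0.13 and -0.08.

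With only the control libraries, Idi1 and Cyp51 passed (0.40 and 0.49, adjusted p 0.00293 and 0.00962 in limma) and Hmgcs1 had the opposite sign, 0.12. Insig1 rose and was called (difference 0.88 in log2 units, SE 0.102, adjusted p = 7.4e-06) and Srebf2 rose (difference 0.28 in log2 units, SE 0.0314, adjusted p = 5.08e-06). Dissociation stress genes were called higher in sorted cells for 6 of 6 tested, with sums of 679.9 to 1535.8 TPM against 38.1 to 45.3 in culture. Proliferation genes were lower for 6 of 6 (median -0.79). The part of either in the sterol differences was not tested.

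Bulk tumors against sorted tumor cells differed less. Cyp51 (difference -0.27 in log2 units, SE 0.0712, adjusted p = 0.00746) and Fdps (difference -0.13 in log2 units, SE 0.0402, adjusted p = 0.0182) fell, 2 of 8 against 18.8% of all genes. In limma 0 rose, against 31.1%, and 1 was higher at an unadjusted p below 0.05, as were 4508 of 13152 genes. None was called, against 13.6% of genes. Dhcr7 was higher by 0.14 (adjusted p = 0.0815 in limma) and Idi1 lower by an estimate of -0.11 (adjusted p = 0.15). The count depended on the libraries: it was 1 without control tumor 1, 1 without sg495 tumor 2, 1 under quantile normalization and 4 without sorted library 2 labelled sg492, and within control libraries only Idi1 passed (-0.23, adjusted p = 0.0351 in limma). In the same contrast leukocyte genes were called higher in bulk tumors for 9 of 9 (median 4.205), fibroblast genes for 6 of 6 tested (median 5.15) and endothelial genes for 4 of 4 tested (median 3.85), and dissociation stress genes were called lower for 6 of 6 tested (median -2.93). The part of these in the sterol differences was not tested.

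**Figure D5:**
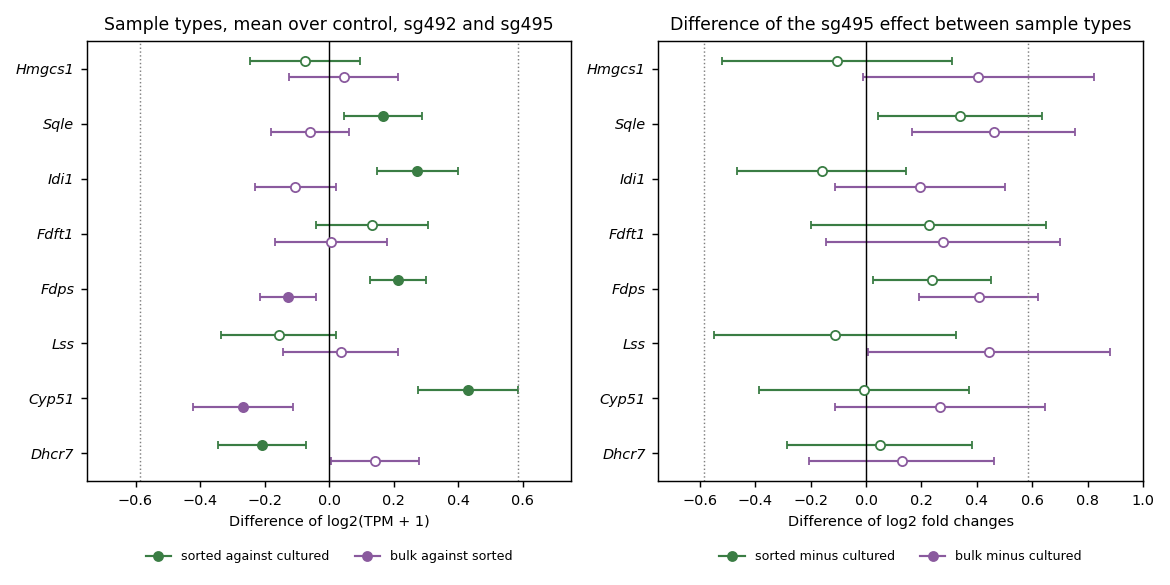
Left, difference between sample types averaged over the guide groups, and right, difference of the sg495 effect between sample types, both on the log2 scale (x axes) for each gene, with 95% confidence intervals as bars and filled points for an adjusted p below 0.05. On the left Cyp51 reaches 0.43 in sorted against cultured cells, and on the right every bulk minus cultured estimate is positive, from 0.13 for Dhcr7 to 0.46 for Sqle.

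The 8 genes varied together over libraries. Over all 18 libraries the 28 pairwise Pearson correlations of log2(TPM + 1) were all positive, with a median of 0.64, from 0.04 for Idi1 with Dhcr7 to 0.88 for Sqle with Fdft1. After the mean of each sample type was subtracted, the median was 0.74, from 0.50 for Idi1 with Dhcr7 to 0.89 for Hmgcs1 with Idi1. Over the 12 libraries of sorted and cultured cells the median was 0.63 and 27 of 28 were positive. The values share libraries and groups, so these are descriptions with no test. Among the listed genes that are not members, correlations with the mean of the 8 after subtraction of the type mean were 0.91 for Sc5d, 0.90 for Srebf2 and 0.73 for Insig1, while Insig2 had 0.0017 and Scap -0.20. Outside the gene lists, the genes of 11711 most like that mean were Aldh9a1 (0.89), Gk5, Snx25 and Fam114a1 (each 0.86) and Fndc3c1 (0.85). Without the subtraction they were Snx25 (0.81), Hddc2 (0.79), Cfap97 (0.78), Phkb (0.78) and Osgep (0.77), and over sorted and cultured cells alone Ckap4 (0.93), Zfp617 (0.93), Snx25 (0.91), Armcx1 (0.90) and Zfp600 (0.90). Snx25 was the gene on all 3 lists. Snx25, Cfap97, Phkb and Zfp617 lie on chromosome 8. The shift of its median with sg495 is described above, and the part of that shift in these correlations was not tested.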

How the data were processed

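RNA-seq of B16F10 melanoma from 3 sample types was used as 18 libraries, 2 for each of 9 groups of sample type and guide. The authors trimmed single-end reads from strand-preserving poly(A) libraries with cutadapt 2.3, aligned them to mm10 with STAR 2.7.0d and deposited RSEM 1.3.1 levels as TPM, which adjust for transcript length and library total. The depth per library cannot be read from TPM, no counting interval is given, and the authors' count test was not repeated. Reads that match several places are shared out by RSEM, which blurs near-identical copies.

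TPM were analysed as log2(TPM + 1), on which fold changes of low genes are understated. Genes averaging 1 TPM or more over the libraries of a fit were fitted with limma 3.58.1 (R 4.3.3, eBayes with trend) within each sample type, or over all 18 libraries for sample types and interactions, and p-values were adjusted by Benjamini-Hochberg over all genes tested. Calls required a fold of 1.5 or more together with an adjusted p under 0.05. Scripts were tested on simulated data. With 2 libraries against 2, an exact two-sided permutation test of a single gene cannot go below p = 0.333, so single genes rest on the spread shared across genes in limma. Tables and figures were made with Python 3.11.15, pandas 2.3.3, numpy 2.4.6 and matplotlib 3.10.9.

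Groups came from the sample titles. Correlations used the mean of the 8 genes' standardised log2 values. All 8 genes are named throughout, with further genes of the pathway, SREBP control and hypoxia lists, and the 5 genes of highest correlation. The members and lists were chosen with earlier results of these data known. Of the listed genes, 1 had no row under its symbol (Ca9), and Itgam was left out because its symbol had several rows. Values of some listed genes are not reported here. Coordinates are those of GENCODE M21, which held 99.12% of the gene IDs. Another 5 columns, of other libraries, were not used. Same-numbered libraries did not deviate together, so numbers were not used as pairs. Alternatives were the pseudocount, the filter on low genes, scaling, the replicate block, the fold threshold, the trend, the libraries fitted and leaving out each library.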

Additional observations from a re-analysis of the deposited data

Results flagged for a closer look

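None of the 8 cholesterol synthesis genes differed in its sg495 effect between sample types at an adjusted p below 0.05, but 9 genes of the hypoxia, sterol transport and fatty acid lists did in limma's interaction test, each with a more positive effect in the tumor-derived libraries. Values are differences of log2 fold changes. For sorted against cultured cells, the hypoxia genes Vegfa (1.51, adjusted p = 0.00431), Bnip3 (1.78, 0.0101), Slc2a1 (1.302, 0.0217) and Pdk1 (0.99, 0.0442) differed, as did Apoe (0.69, 0.011), a lipid carrier. For bulk tumors against cultured cells, Vegfa (1.34, adjusted p = 0.0153), Bnip3 (1.80, 0.018) and Pdk1 (1.24, 0.0267) differed. In the same contrast, the fatty acid desaturase genes Scd1 (0.98, adjusted p = 0.02), Scd2 (0.64, 0.0477) and Fads2 (0.62, 0.0156) differed, as did Npc2 (0.46, 0.0161), a lysosomal cholesterol carrier, and Apoe (0.57, 0.0402). The adjusted p stayed below 0.05 in 26 of 26 alternatives for Apoe, Vegfa and Bnip3 between sorted and cultured cells, and in as few as 6 of 26 for Scd2 in bulk tumors. Among the marker lists, Egr1 (1.08, adjusted p = 0.0269) and Mlana (0.33, 0.0344) passed the same limma test between sorted and cultured cells, and Ptprc (1.46, adjusted p = 0.0325), Adgre1 (1.31, 0.0446) and Coro1a (1.64, 0.0307) between bulk tumors and cultured cells.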

How the results depend on the processing

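Across all settings tried, 2261 values for single genes counted as unchanged, 219 as weaker and 13 as reversed, and 35 gained a call. The cause was not tested. For the listed genes, weaker means a lost call or a lost adjusted p below 0.05. None of the 8 was called in the main fit, so a lost adjusted p below 0.05 counted as unchanged for them. Reversed leaves out sign changes of the 8 that were no larger than the SE and had no adjusted p below 0.05. Such changes occurred: Fdft1 in bulk tumors against sorted cells was lower in 7 of 27 alternatives, and Lss with sg495 in bulk tumors in 4 of 16. Both were higher in the main fit. Without the fold threshold, 8 of the 8 genes counted as called with sg495 in cultured cells, against 1442 of all 12007 genes. The count was 5 in sorted against cultured cells (8750 of 13152 genes) and 2 in bulk tumors against sorted cells (6563 of 13152 genes). The counts between sample types do not set the 8 genes apart. Under every other setting none of the 8 was called. Sqle with sg495 in bulk tumors was -0.0011 under median-of-ratios scaling. In control libraries only, Hmgcs1 was 0.12 in sorted against cultured cells, and in bulk tumors against sorted cells Hmgcs1 was -0.21 and Lss -0.21. When libraries were left out in turn, sg495 in bulk tumors gave -0.23 to 0.056 for Cyp51, -0.17 to 0.091 for Hmgcs1 and -0.30 to 0.076 for Fdft1. With sg492, Lss in bulk tumors ranged from -0.38 to 0.020, and in sorted cells Dhcr7 ranged from -0.16 to 0.20, Fdft1 from -0.45 to 0.011 and Cyp51 from -0.29 to 0.11. Cyp51 with sg492 in cultured cells ranged from -0.053 to 0.20, and Sqle in bulk tumors against sorted cells from -0.13 to 0.0091.

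Replicate numbers correlated at -0.126 between control and sg492 bulk tumors and at -0.03 to 0.05 elsewhere. With the replicate block, 7 of the 8 genes had an adjusted p below 0.05 with sg495 in cultured cells, against 8 without it, the type contrasts kept 5 and 2, and none of the 8 was called under the block in any comparison. A crossed pairing for sg492 bulk tumors, chosen after seeing the data, gave 0 called. No scaling moved the median of all genes by over 0.1. With 2 libraries a group, and with the read count of each library not given in the files, small differences could go undetected. Where an interval given in the text includes 0, differences inside it remain possible.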

Other observations

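Desaturase genes of fatty acid synthesis fell with sg495 in cultured cells. Of 9 genes of fatty acid synthesis, 7 were lower, 2 were higher and 4 fell, with a median of -0.16. Scd1, a stearoyl-CoA desaturase, was at 103.3 and 94.1 TPM in control and 58.2 and 56.1 TPM with sg495 and was called (log2 fold change -0.78, SE 0.0566, adjusted p = 0.00189, limma). Scd2 was at 981.8 and 963.5 TPM against 702.98 and 728.01 TPM (log2 fold change -0.44, SE 0.0329, adjusted p = 0.00189). The desaturases of polyunsaturated fatty acids also fell, with log2 fold changes of -0.39 for Fads2 and -0.33 for Fads1. In sorted cells 8 of 9 were lower, 4 of them at an unadjusted p below 0.05 and none passing in limma, and in bulk tumors 8 of 9 were higher, 2 of them at an unadjusted p below 0.05 and none passing.

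Of 7 sterol uptake genes, 5 were lower and 2 higher with sg495 in cultured cells, and none was called. Scarb1, Stard4 and Npc2 fell by 0.40, 0.43 and 0.23 on the log2 scale (adjusted p 0.0114, 0.0319 and 0.0151 in limma). Their adjusted p stayed below 0.05 under 13, 6 and 11 of 16 alternatives. Of 5 efflux and storage genes tested, 5 were lower, and Apoe was called, at 871.6 and 852.96 TPM in control and 524.5 and 533.4 TPM with sg495 (log2 fold change -0.70, SE 0.03, adjusted p = 0.000691, limma). In cultured cells with sg492, none of the genes of these 3 lists passed in limma, and 3, all of fatty acid synthesis, had an unadjusted p below 0.05.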
